A study of Mus musculus with 4 samples.

Results

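The core pluripotency transcription factors examined here are 10 genes: Pou5f1 (Oct4), Sox2, Nanog, Sall4, Esrrb, Tbx3, Tfcp2l1, Zfp42 (Rex1), Nr5a2 and Nr0b1 (Dax1). They were chosen by name, as the rows whose platform annotation gives 1 of these symbols, which gave 22 probe sets out of 45037 that are no controls. Each of the 10 genes had at least 1 probe set bright enough to be tested, and 19 of the 22 probe sets passed the filter on dim values. The arrays held total RNA of mouse embryonic stem (ES) cells, with 2 wild-type (WT) clones and 2 Klf5 knockout (KO) clones, 1 Affymetrix array per clone. All 4 clones grew in ES medium with 15% FBS and LIF, the cytokine that sustains self-renewal of mouse ES cells, and the labels name no other genotype, agent or feeder layer. Each array is 1 clone, so differences between genotypes rest on 2 lines a side, and the sources used here do not give how the Klf5 alleles were disrupted. The p-values rest on the spread between these clones, with the variance of each gene drawn toward that of all tested probe sets. The pooled part weighs more (prior degrees of freedom 6.87 against 2 residual).

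Pou5f1, Sox2 and Nanog bind many regulatory regions of ES cells together and hold up one another's transcription. Around them works a second layer of factors, including Esrrb, Tbx3, Tfcp2l1, Nr5a2 and Kruppel-like factors such as Klf5, several of which lie downstream of LIF and its mediator STAT3. This layer marks the naive state of the pre-implantation epiblast, and its members are lost early when ES cells leave that state.

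Between the genotypes, 1 of the 10 factors changed past the test: Nr0b1 fell 2.82-fold in the KO clones, a call that was lost with either KO clone left out (adjusted p = 0.11 and 0.064). Tfcp2l1 and Esrrb read 1.77 and 1.59 times lower without passing, and Pou5f1, Sox2 and Nanog read between 1.13 and 1.23 times lower, also without passing. Other Esrrb probe sets read 1.22 and 1.91 times lower (limma, adjusted p = 0.41 and 0.0503). The point estimate was negative for all 10 genes, against 52.8% of the 13023 genes measured (for 9 of the 10, all but Zfp42, when arrays were centred on ES cell markers, and for 9, all but Sall4, without KO clone 1). The median log2 fold change of the 10 was -0.28, beside -0.02 over all genes. In bulk RNA, fewer cells that express a factor and less of its RNA per cell cannot be told apart.

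RefSeq promoter sequence (GRCm38.p6) was at hand for 8 of the 10 genes. The 250 bases before the start are shown for the 3 factors with the largest negative values (Nr0b1, Tfcp2l1 and Esrrb) and for 2 with small ones (Nanog and Zfp42), each 5′ to 3′ on the strand of the gene, with the strand in brackets. Capitals mark matches on either strand to CACCC (the core bound by Kruppel-like factors), ATGCAAA (the octamer of POU factors), AAGGTCA (the monomer site of Esrrb and Nr5a2), ACAAAG or ACAATG (Sox factors).
Nr0b1 chrX:86191525-86191774 (+): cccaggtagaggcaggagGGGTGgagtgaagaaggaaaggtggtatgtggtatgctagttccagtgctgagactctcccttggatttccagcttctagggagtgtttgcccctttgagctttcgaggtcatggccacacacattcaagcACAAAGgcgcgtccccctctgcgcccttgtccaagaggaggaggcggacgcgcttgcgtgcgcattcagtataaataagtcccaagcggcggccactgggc
Tfcp2l1 chr1:118627695-118627944 (+): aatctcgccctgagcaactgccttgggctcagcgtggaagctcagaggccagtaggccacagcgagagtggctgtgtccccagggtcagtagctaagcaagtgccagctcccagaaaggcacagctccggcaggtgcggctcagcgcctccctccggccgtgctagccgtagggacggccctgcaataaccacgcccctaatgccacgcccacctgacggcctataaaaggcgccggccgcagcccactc
Esrrb chr12:86360867-86361116 (+): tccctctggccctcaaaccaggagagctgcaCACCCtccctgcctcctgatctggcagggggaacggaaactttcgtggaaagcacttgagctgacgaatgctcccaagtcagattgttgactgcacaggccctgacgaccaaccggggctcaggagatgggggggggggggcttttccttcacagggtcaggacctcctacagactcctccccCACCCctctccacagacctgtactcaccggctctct
Nanog chr6:122707239-122707488 (+): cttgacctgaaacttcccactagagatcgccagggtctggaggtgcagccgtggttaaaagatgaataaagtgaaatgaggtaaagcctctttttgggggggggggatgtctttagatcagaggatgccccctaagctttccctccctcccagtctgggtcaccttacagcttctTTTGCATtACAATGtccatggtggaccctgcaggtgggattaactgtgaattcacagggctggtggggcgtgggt
Zfp42 chr8:43307010-43307259 (-): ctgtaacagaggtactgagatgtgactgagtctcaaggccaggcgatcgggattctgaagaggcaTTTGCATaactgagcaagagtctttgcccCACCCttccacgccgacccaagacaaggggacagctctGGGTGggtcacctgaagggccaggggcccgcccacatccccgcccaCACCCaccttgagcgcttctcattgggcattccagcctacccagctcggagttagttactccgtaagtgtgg
The Nr0b1 window held 1 CACCC match and 1 ACAAAG match. That of Esrrb held 2 CACCC matches and that of Tfcp2l1 held none of the 5 motifs as spelled here. Other forms of these sites were not searched. In the Nanog window shown, the octamer and ACAATG lay 1 base apart with no CACCC match, while the second Nanog window, which starts 76 bases further on and holds the same pair, had 3 CACCC matches. The Zfp42 window held the octamer with 3 CACCC matches. CACCC was present in 52% of all 32851 promoter windows of this length. The octamer was present in 4.12%, AAGGTCA in 4.08%, ACAAAG in 16.5% and ACAATG in 10.7%. Over all 12 windows of the 8 factors, the octamer was found for 3 genes (Sox2, Nanog and Zfp42), CACCC for 6 and AAGGTCA for 0. Some of these windows overlap or belong to 1 gene, and a match describes only the letters in it.

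At the targeted gene, 1 of 3 probe sets separated the genotypes widely. The main Klf5 probe set read 2398 and 1782 in the WT clones and 34.8 and 49.9 in the KO clones (normalized intensity; wherever a pair of clones is given, clone 1 comes first). A second Klf5 probe set, 1451739_at, read 102 and 88.6 in WT against 82.6 and 61.0 in KO (log2 fold change -0.35 ± 0.20, limma, adjusted p = 0.36), and the third, 1430255_at, lay under the filter. Over all probe sets, 337 were lower and 659 higher in KO among 27022 tested (limma, adjusted p under 0.05). With each array centred on its median in place of quantile normalization, the split was 1418 lower and 640 higher, and with arrays centred on ES cell markers it was 236 lower and 1194 higher. Before normalization WT clone 1 was the brightest array, with a trimmed mean of 226 against 137 to 149.8 in the others, which is why normalized values are used throughout. For beta-actin, the 3′ control probe set exceeded the 5′ one, on the log2 scale, by 0.48 and 0.44 in the WT clones and 0.75 and 0.52 in the KO clones. For Gapdh the 3′ probe set was the lower one, with -0.32 and -0.32 in the WT clones and -0.33 and -0.29 in the KO clones. Of the 20 fibroblast and feeder cell genes measured, 18 rose and 0 fell (limma; 0 lower at an unadjusted p under 0.05), with a median log2 fold change of 2.18. With 1 array left out, 11 (without KO clone 1) to 17 (without WT clone 1) rose, 12 without KO clone 2. Their summed intensity was 3401 and 2548 in the WT clones and 15666 and 14997 in the KO clones, and Fap and Lum, also of that list, lay under the filter. The part of these signals in the values of the factors was not tested.

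Nr0b1 encodes an orphan nuclear receptor without a usual DNA-binding domain, which acts mostly as a co-repressor and binds Oct4 and Nr5a2 in ES cells. Its only probe set read 1108 and 730.3 in the WT clones and 295 and 323 in the KO clones. Both KO clones lay far below both WT clones, and the KO clones were close to each other while the WT clones were not. On the log2 scale it fell by 1.497 ± 0.23 (± SE throughout, 2 arrays a group; 95% confidence interval -2.01 to -0.98; limma, adjusted p = 0.0095), which left 35.4% of the WT level. Only 0.177% of the genes measured had a difference as low as this or lower. The WT clones differed from each other 1.51-fold, or by 0.59 on the log2 scale, where the median gene differed by 0.18. The call was lost without either KO clone, though the log2 fold change moved little (-1.44 without KO clone 1 and -1.57 without KO clone 2). In those fits only the WT clones, 0.59 apart, gave residual spread, and the standard error was 0.29 in each.

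**Figure D1:**
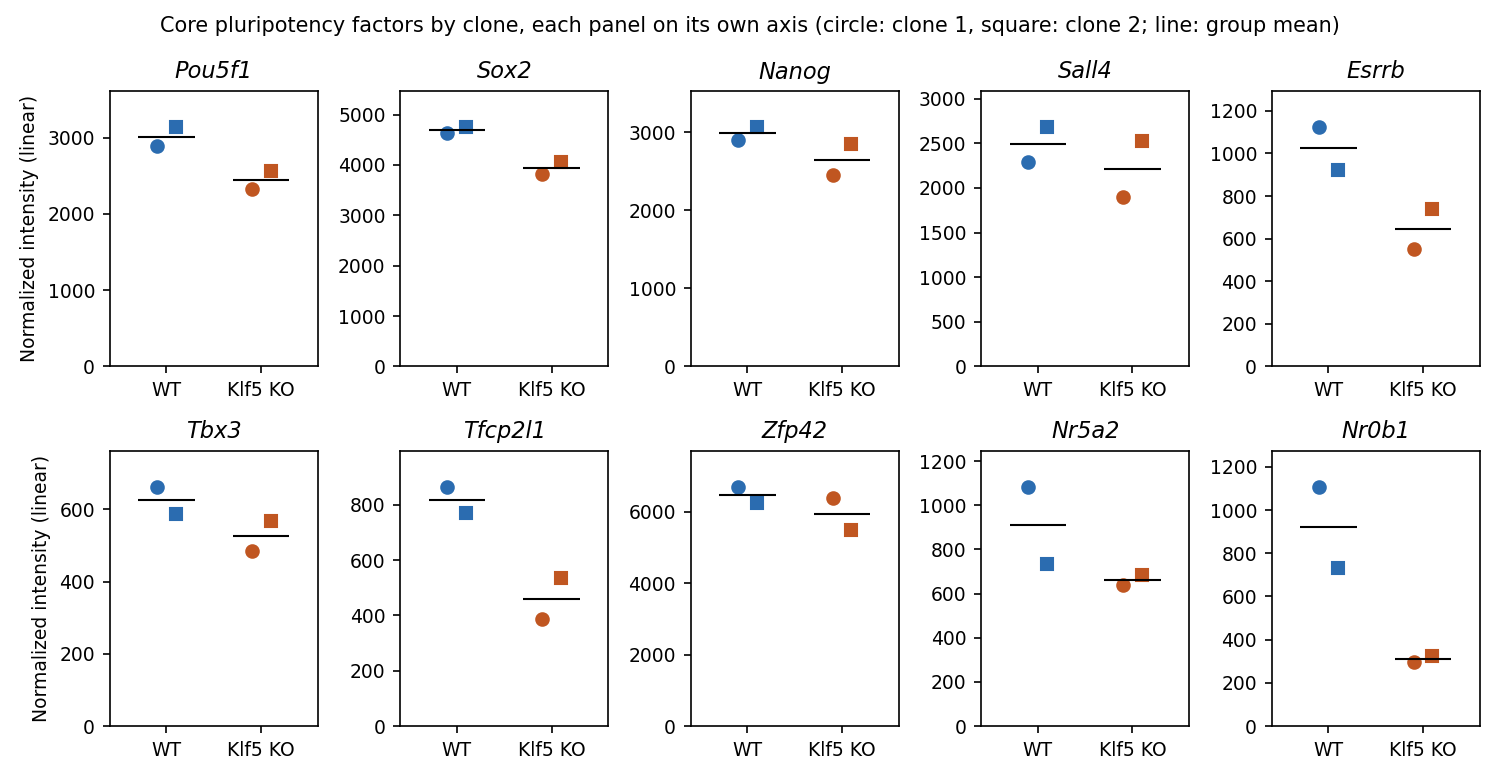
Normalized intensity (linear axis from 0, a separate scale in each panel) of the 10 factors in the 2 WT and 2 Klf5 KO clones, with 1 probe set per gene; points are single arrays and lines are group means. Nr0b1 read 1108 and 730.3 in WT against 295 and 323 in KO, while Sall4 and Zfp42 overlapped between the groups.

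The other nuclear receptors of the group, Esrrb and Nr5a2, read lower on each of their probe sets and passed on none. Esrrb encodes an orphan estrogen-related receptor that is a direct target of Nanog and can stand in for it in self-renewal. Its brightest probe set read 1125 and 924 in the WT clones and 549 and 738 in the KO clones. The groups did not overlap, and KO clone 1 was the lower of the KO clones. The difference was -0.67 ± 0.21 on the log2 scale (limma, adjusted p = 0.13). A dimmer probe set, 1422986_at, read 268 and 247 in WT against 104 and 154 in KO, a difference of -0.93 ± 0.21 that lay just outside the threshold (limma, adjusted p = 0.0503). The remaining one, whose suffix _x_at marks probes that may match other transcripts, read 265 and 286 in WT against 212 and 235 in KO (-0.28 ± 0.18). All 3 thus put KO below WT in each clone, at sizes from 1.22-fold to 1.91-fold.

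Nr5a2 (Lrh1) encodes a receptor that binds regulatory regions of Pou5f1 and Nanog. Its brightest probe set read 1084 and 734 in the WT clones and 641 and 686 in the KO clones. Most of that gap came from WT clone 1, since WT clone 2 lay only slightly above the KO clones. The log2 difference was -0.42 ± 0.22 (95% confidence interval -0.92 to 0.08; limma, adjusted p = 0.32), and it was -0.14 without WT clone 1. A further probe set, 1456521_at, showed the same order, at 492 and 335 in WT against 252 and 257 in KO (-0.64 ± 0.22, limma, adjusted p = 0.14). By contrast the probe set 1449706_s_at had WT clone 2 highest, with 195 and 219 in WT against 121 and 146 in KO (-0.58 ± 0.19, limma, adjusted p = 0.13). The last one was dim, at 22.4 and 30.5 in WT against 17.05 and 7.96 in KO. All 4 probe sets of Nr5a2 put both KO clones below both WT clones.

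Tfcp2l1, Tbx3 and Zfp42 are factors of the naive state. Tfcp2l1 encodes a CP2-family factor that is a STAT3 target and supports self-renewal when raised. Its main probe set, 1418091_at, read 865 and 768 in the WT clones and 386 and 535 in the KO clones. Here too the groups stood apart and KO clone 1 was lowest. The difference was -0.82 ± 0.21 on the log2 scale (95% confidence interval -1.30 to -0.34; limma, adjusted p = 0.071), a KO level at 56.6% of WT. The other 2 Tfcp2l1 probe sets lay under the filter at 13.05 and were not tested. On 1460715_x_at the values were 8.17 and 11.08 in WT against 3.64 and 3.57 in KO, and on 1460714_at 2.96 and 4.33 against 0.347 and 1.27.

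Tbx3 encodes a T-box repressor that acts downstream of PI3K and MAPK signals in LIF. The brightest of its 5 probe sets read 662 and 587 in the WT clones and 485 and 568 in the KO clones, a log2 difference of -0.24 ± 0.19 (95% confidence interval -0.67 to 0.18; limma, adjusted p = 0.50). KO clone 2 lay next to WT clone 2. The remaining probe sets overlapped between the groups, and they did not share a direction. The probe set 1437479_x_at was high in WT clone 1 alone, at 288 against 171 in WT clone 2 and 180.3 and 174 in KO clones 1 and 2. On 1445757_at, KO clone 1 was the high array, at 97.6 against 51.05 and 44.2 in WT and 35.6 in KO clone 2, and this was the only tested probe set of the 19 with a positive difference (0.27 ± 0.32). On 1439567_at the values were 28.5 and 24.6 in the WT clones and 14.1 and 25.4 in the KO clones. The dimmest, 1444594_at, did not pass the filter, with 6.53 and 1.57 in WT against 11.2 and 1.22 in KO.

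Zfp42 encodes a zinc finger protein used as a marker of undifferentiated ES cells. It read 6707 and 6254 in the WT clones and 6383 and 5495 in the KO clones. KO clone 1 lay between the WT clones. The difference was -0.13 ± 0.18 on the log2 scale (95% confidence interval -0.55 to 0.29; limma, adjusted p = 0.74), the smallest of the 10, and its sign turned to 0.10 when the arrays were centred on ES cell markers.

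Pou5f1, Sox2 and Nanog each had 1 probe set. Pou5f1, the POU-domain factor without which a pluripotent inner cell mass does not form, read 2887 and 3141 in the WT clones and 2327 and 2566 in the KO clones. Its log2 difference was -0.30 ± 0.18 (95% confidence interval -0.71 to 0.11; limma, adjusted p = 0.39). Sox2, its HMG-box partner on composite DNA sites, read 4633 and 4755 in WT against 3818 and 4056 in KO, a difference of -0.25 ± 0.18 (limma, adjusted p = 0.46). In both genes the clones of a genotype lay closer to each other than to the other genotype. Nanog, a homeodomain factor whose level varies from cell to cell in serum and LIF, read 2901 and 3068 in WT against 2448 and 2843 in KO, so that KO clone 2 came close to WT clone 1. Its difference was -0.18 ± 0.18 (95% confidence interval -0.59 to 0.24; limma, adjusted p = 0.63). The lower ends of the intervals of Pou5f1, Sox2 and Nanog lay at -0.71, -0.66 and -0.59, so these arrays leave room for falls of those sizes and for none.

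Sall4 encodes a zinc finger factor that binds Pou5f1 regulatory DNA and is needed to maintain the Oct4 level. Its main probe set read 2293 and 2683 in the WT clones and 1902 and 2530.3 in the KO clones, with KO clone 2 between the WT clones. The difference of -0.18 ± 0.21 (limma, adjusted p = 0.68) became 0.03 without KO clone 1. A dimmer probe set, 1424153_s_at, read 185 and 152 in WT against 121 and 154 in KO, with the same overlap of KO clone 2.

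**Figure D2:**
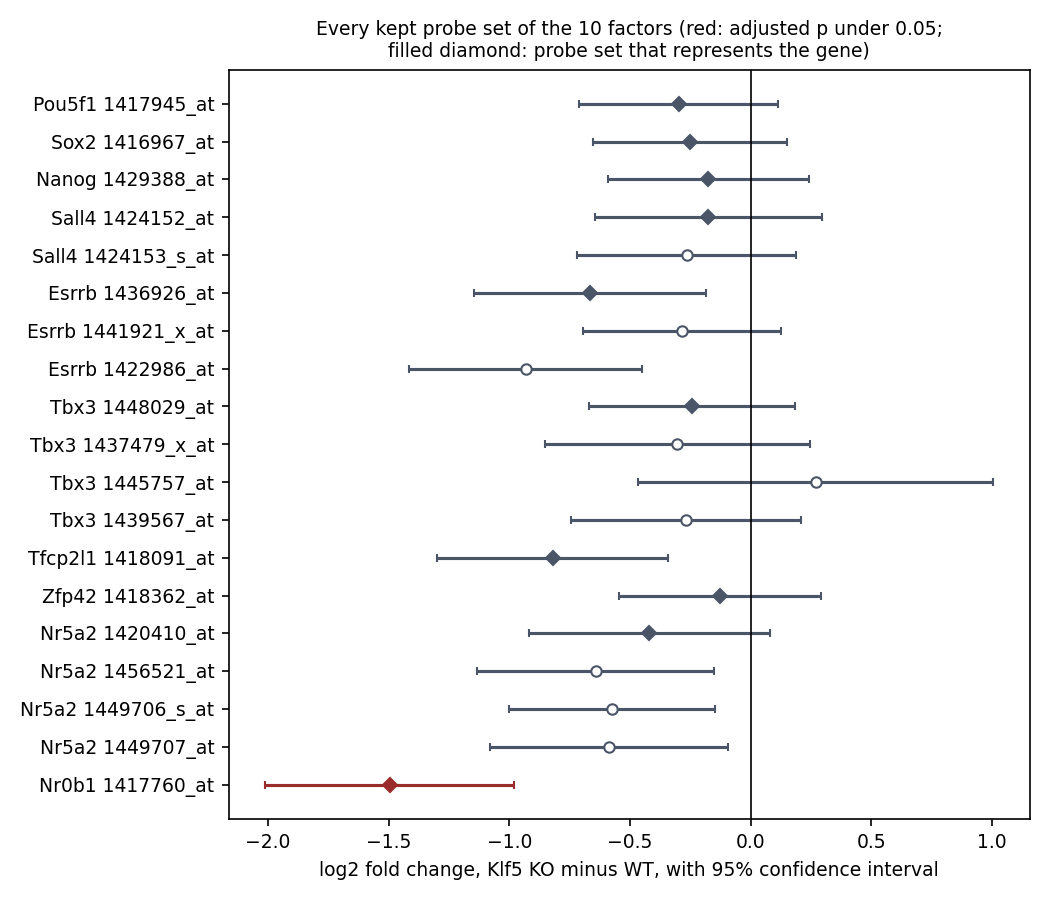
Log2 fold change (KO minus WT) with its 95% confidence interval for the 19 tested probe sets of the 10 factors; filled diamonds represent the gene, and red marks an adjusted p under 0.05. Of the 19 values 18 are negative (16 with arrays centred on ES cell markers), and only the probe set of Nr0b1 (-1.497) passed.

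By count, 1 of the 19 tested probe sets was lower past the threshold and 0 were higher (limma; 0 higher at an unadjusted p under 0.05), where 1.25% of all probe sets were lower and 2.44% higher. Without KO clone 1 or KO clone 2 the count of lower ones was 0. At an unadjusted p under 0.05, 7 of the 19 were counted, against 20.4% of all. Both KO clones lay below both WT clones for 13 of the 19 and above for 0, where the share over all probe sets was 28.4% below and 23.9% above. With 1 probe set per gene this was so for 8 of the 10 factors, all but Sall4 and Zfp42, against 29.7% of all genes. In the values as deposited 13 of 19 were lower, against 28.2% of all, and 0 higher, against 8.38%, but not the same 13: Sall4 (1424152_at) joined and Tbx3 (1448029_at) left. Probe sets of 1 gene measure the same transcripts, and all 19 share the same 4 arrays, so these counts are not independent of each other.

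The order of the 10 differences was taken with 1 probe set per gene. It ran from Nr0b1 through Tfcp2l1, Esrrb and Nr5a2 to Pou5f1, Sox2, Tbx3, Nanog, Sall4 and Zfp42. The interval of Nr0b1 (-2.01 to -0.98) did not reach the estimates of the other 9 genes. From Nr5a2 to Zfp42 the estimates spanned -0.42 to -0.13, and each interval held the estimates of all the others in that stretch. Both statements depend on the probe set taken. On other probe sets Esrrb had -0.93 and -0.28, and Nr5a2 had -0.64, -0.59 and -0.58. The value of -0.64 lay below the intervals of Nanog and Zfp42, whose low ends were -0.59 and -0.55. Differences between genes were not tested.

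The KO clones were not equally low. In KO clone 1 the median difference of the 10 factors from the WT mean was -0.37, and in KO clone 2 it was -0.23. KO clone 1 was the lower clone for 9 of the 10 factors, all but Zfp42, where 57.1% of all genes were lower in that clone. The gap between the KO clones was widest for Tfcp2l1 (0.46 on the log2 scale), Esrrb (0.42) and Sall4 (0.41), against a median of 0.20 over all genes. KO clone 1 also had the highest 3′ to 5′ beta-actin ratio of the 4 arrays (0.75). Its Gapdh ratio was the lowest (-0.33), close to that of the WT clones (-0.32 in each). The part of RNA quality in this gap was not tested. WT clone 1 was the higher WT clone for 6 of the 10, where 46.3% of all genes were higher in that clone, with the widest gaps for Nr0b1 (0.59) and Nr5a2 (0.55).

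**Figure D3:**
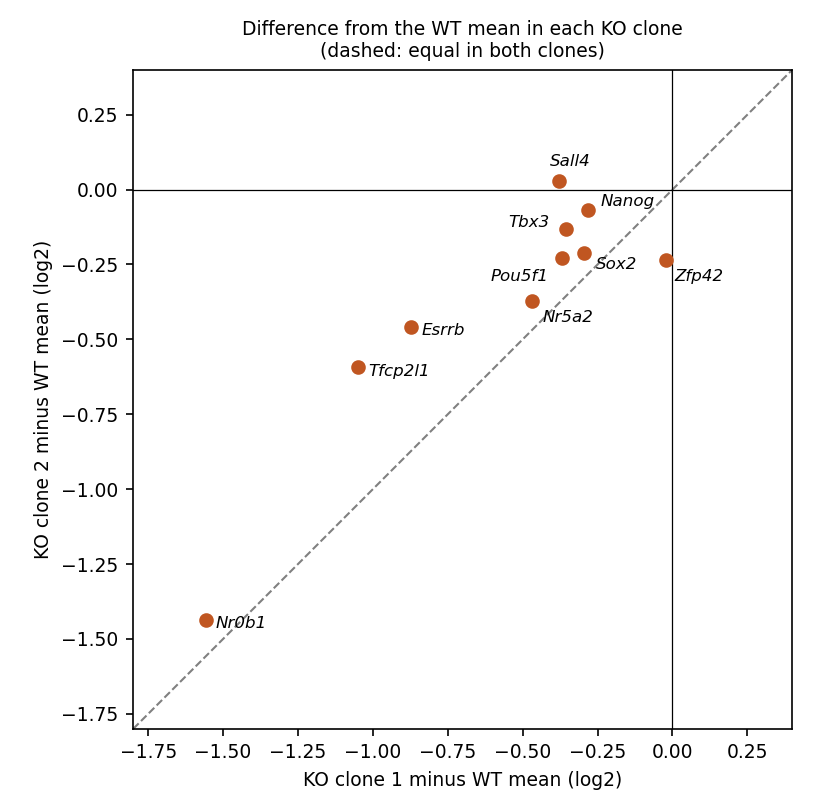
Difference from the WT mean (log2) in KO clone 1 (x axis) and KO clone 2 (y axis) for the 10 factors, with 1 probe set per gene; the dashed line marks equal values. Points above the line are lower in KO clone 1, which holds for 9 of the 10, and Nr0b1 lies farthest from 0 in both clones (-1.56 and -1.44).

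Other factors of the same network had mostly negative log2 fold changes and few calls. Over all genes, 1.34% fell and 2.94% rose past the threshold, and both KO clones were above both WT clones for 25.9%. Of 26 measured network factors and cofactors, 1 fell, 1 rose and 24 did not pass, with a median log2 fold change of -0.30, close to that of the 10 factors. The value was negative for 21 of the 26, and at an unadjusted p under 0.05 (limma) 7 were lower and 1 higher. Both KO clones were below both WT clones for 16 of the 26 and above for 1. Gbx2, a homeobox target of STAT3, fell by 0.94 ± 0.19 (limma, adjusted p = 0.032), from 236 and 186 in WT to 99.3 and 103.6 in KO. Otx2, a factor of the post-implantation epiblast, rose by 2.00 ± 0.20 (limma, adjusted p = 0.0013), from 207 and 155 to 823 and 713. Otx2 passed with each array left out (highest adjusted p = 0.034, limma), and Gbx2 in no fit of that kind (lowest adjusted p = 0.057). Next by size came Nacc1, a partner of Nanog, at -0.77 ± 0.18 (limma, adjusted p = 0.057), and Sall1, a relative of Sall4, at -0.63 ± 0.20 (limma, adjusted p = 0.12).

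Genes known as targets of Oct4, Sox2 or Nanog did not follow one direction. Of 22 measured, 1 fell, 2 rose and 19 did not pass, with a median of -0.13 (-0.04 without KO clone 1 and -0.06 without WT clone 2), and both KO clones were lower for 8 and higher for 6. Tcl1, a co-activator of AKT, fell by 1.27 ± 0.20 (limma, adjusted p = 0.010), and the Nodal antagonists Lefty2 and Lefty1 rose by 1.86 ± 0.19 and 0.90 ± 0.19 (limma, adjusted p = 0.0015 and 0.041). Lefty2 passed with each array left out, Lefty1 in no such fit (lowest adjusted p = 0.090), and Tcl1 in all but that without KO clone 1 (adjusted p = 0.097). Dppa3, a maternal-effect gene also active in naive ES cells and germ cells, had 0.96 ± 0.29, and Eras, an ES cell Ras protein, had -0.51 ± 0.19, without passing (limma, adjusted p = 0.11 and 0.18). With 1 array left out, Dppa3 ran from 0.49 without WT clone 1 (limma, adjusted p = 0.38) to 1.43 without WT clone 2 (adjusted p = 0.017), the 1 leave-out in which it passed. The 7 measured ES cell markers that are not among the 10 factors (Utf1, Fgf4, Dppa5a, Tdgf1, Lin28a, Dppa4 and Gdf3) had a median of 0.03 (-0.01 without KO clone 2). None of them passed (limma, with 0 at an unadjusted p under 0.05), and 5 of the 7 overlapped between the genotypes. Over all genes, both KO clones were below both WT clones for 29.7% and above for 25.9%. The summed intensity of the 7 markers was 21291 and 21943 in the WT clones and 21802 and 22389 in the KO clones. Dppa5a alone gave 10276 of the sum in WT clone 1. Utf1, a chromatin-bound factor of undifferentiated cells, was the 1 marker lower in both KO clones. It read 1768 and 2272 in WT against 1345 and 1610.2 in KO (-0.44 ± 0.20, limma, adjusted p = 0.27). Tdgf1 was the 1 marker higher in both, at 4700 and 5092 in WT against 6040 and 5513 in KO (0.24 ± 0.18, limma, adjusted p = 0.50). No marker read under 646 on any array. All 7 markers are also among the 22 target genes, so these lists are not separate.

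Close relatives of the 10 factors were checked, since relatives can share functions and probes can match them. Of 19 relatives, 11 were measured, among them Esrra, Sox15, Sall2, Tfcp2 and Yy1, while Esrrg, Nr5a1, Pou2f2, Sall3, Sox1, Tbx2 and Tbx5 lay under the filter. None passed in either direction (limma; 1 lower and 3 higher at an unadjusted p under 0.05). Their median of 0.21 ran from -0.05 without WT clone 2 to 0.34 without KO clone 1. Pou3f1 (Oct6), a POU factor of the post-implantation epiblast, came nearest, with 197 and 224 in the WT clones and 334 and 374 in the KO clones (0.71 ± 0.18, limma, adjusted p = 0.075). Markers of other early lineages were also counted. Of 6 trophectoderm genes 0 rose and 1 fell, of 8 primitive endoderm genes 0 rose and 1 fell, and of 8 post-implantation epiblast genes 2 rose and 0 fell. At an unadjusted p under 0.05 (limma) these lists had 1 higher and 2 lower, 1 higher and 1 lower, and 3 higher and 0 lower. Over all probe sets 20.4% had such a p, and over all genes 1.34% fell and 2.94% rose past the threshold. The trophectoderm gene that fell passed in no fit with 1 array left out, and 1 to 2 epiblast genes rose in those fits.

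**Figure D4:**
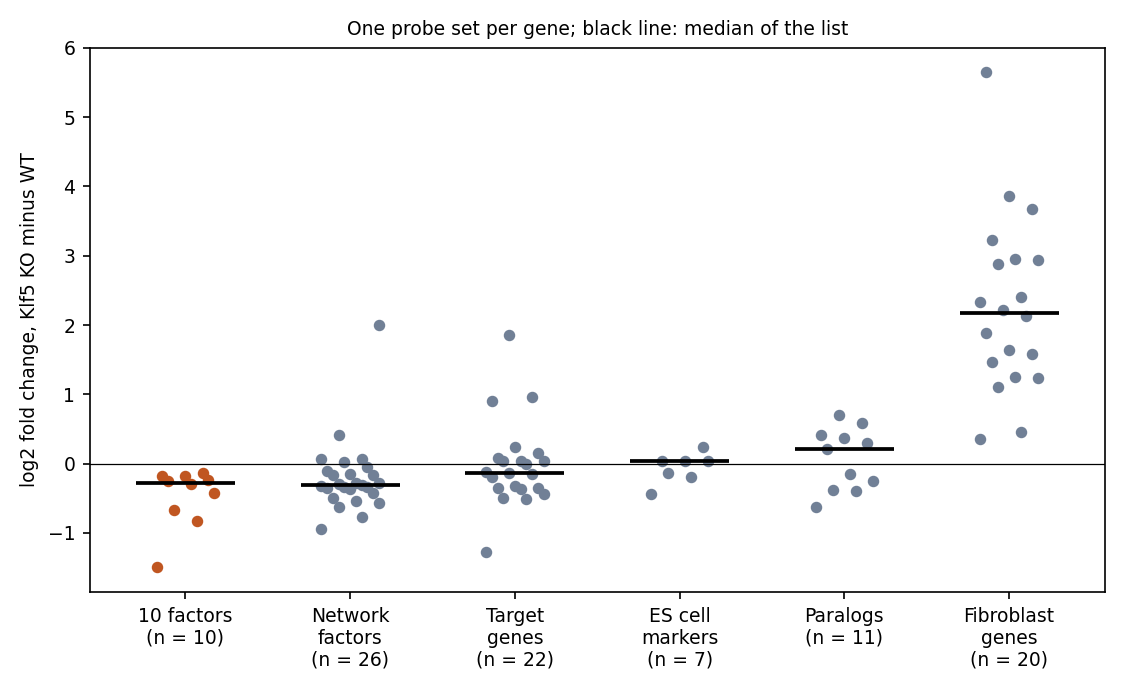
Log2 fold change (KO minus WT) of single genes, 1 probe set each, for the 10 factors and 5 comparison lists; black lines are medians. The medians were -0.28 for the 10 factors, -0.30 for network factors, -0.13 for target genes (-0.04 without KO clone 1), 0.03 for ES cell markers (-0.01 without KO clone 2), 0.21 for relatives (-0.05 without WT clone 2) and 2.18 for fibroblast genes. Some genes are in several lists, and all ES cell markers shown are also target genes.

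The genes whose values over the 4 arrays were most like those of a factor were found by the distance between log2 values centred on each gene's own mean, among 13022 other genes. Nearest to Nr0b1 were Accsl (distance 0.082), Klk10 (0.17) and Fntb (0.22). Accsl read 153 and 96.02 in the WT clones and 29.5 and 37.6 in the KO clones, which has the same order as Nr0b1, WT clone 1 highest and KO clone 1 lowest. Accsl, Klk10 and Fntb also fell past the threshold (limma, adjusted p = 0.011, 0.0071 and 0.023), as Nr0b1 did, and like it they failed without KO clone 1 (adjusted p = 0.12, 0.087 and 0.18) or KO clone 2 (0.062, 0.053 and 0.075); Fntb also failed without WT clone 1 (0.075). Nearest to Pou5f1 were Iba57, Pla2g5 and Slf2 (0.027 to 0.031), and to Nanog Itpripl1, Wdr46 and Naf1 (0.019 to 0.024), none of which passed. With 4 arrays and shallow differences many genes have such profiles, so these names describe the arrays only. Accsl, Klk10 and Fntb were picked for closeness to Nr0b1 on these same arrays, so calls and losses shared with it follow from that choice.

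**Figure D5:**
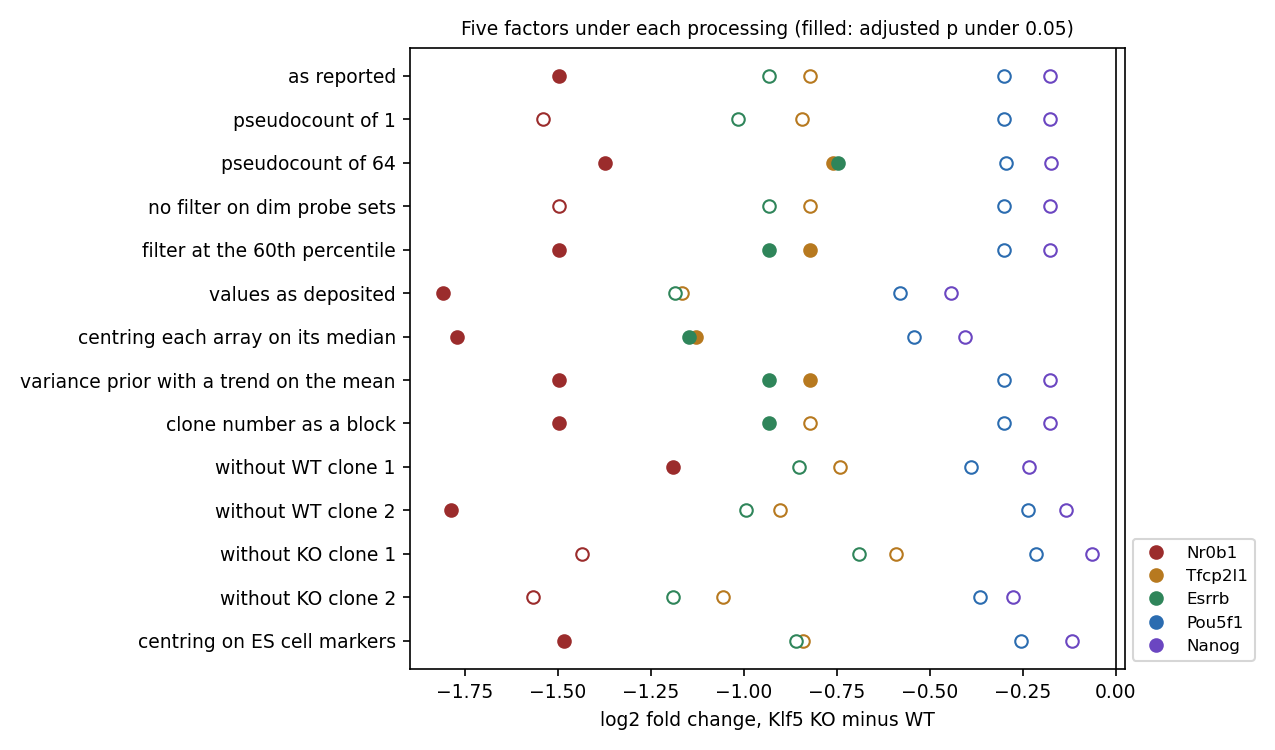
Log2 fold change (KO minus WT, x axis) of Nr0b1, Tfcp2l1, Esrrb (probe set 1422986_at), Pou5f1 and Nanog under each way of processing (y axis). The Esrrb probe set shown is the one with its lowest value, not the one that represents the gene elsewhere. Filled points have an adjusted p under 0.05 (limma). Every point is negative, Nr0b1 runs from -1.81 to -1.19, and Pou5f1 and Nanog pass under none of the settings shown.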

How the data were processed

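Per the labels' protocols, total RNA was purified on columns and labelled with biotin for Affymetrix arrays. The deposited table holds 1 linear intensity per probe set and array; the sources used here do not say how the authors summarised, background-corrected or scaled it. Arrays were grouped by title (2 WT and 2 KO clones). They were quantile normalized (limma 3.58.1, R 4.3.3) and log2(intensity + 16) was taken, which understates changes of dim genes; the deposited values were not on the log2 scale. Probe sets with a mean under the 40th percentile (intensity 13.05) were removed. limma's linear model with moderated variance compared KO with WT (residual degrees of freedom 2, prior 6.87), with Benjamini-Hochberg adjustment over 27022 probe sets and a threshold of 0.05. It was run on simulated data whose variances were drawn from the prior fitted here. That run checks the code and not how well the model describes these arrays. Errors are moderated standard errors, n = 2 arrays per group, and the number of arrays limits precision.

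The platform annotation gave a single symbol to 34958 rows, several to 932 and none to 9160; only the first are named. The probe set of highest mean represents a gene, with suffix _x_at only where there is no other. The 10 factors, the comparison lists (network factors, targets, relatives, ES cell, fibroblast, trophectoderm, primitive endoderm and epiblast genes) and the motifs were chosen with earlier results of these data known. Some genes, such as Otx2, are in several lists. All probe sets of the factors are described. Also named are Klf5, up to 2 genes each way past the threshold and up to 2 more by size from the network, target and relative lists, and the 3 genes nearest to Pou5f1, Nanog and Nr0b1. Members of the marker lists are named where a count is explained. Clone numbers were not taken as pairs: the differences between clones 1 and 2 correlated at 0.055 between genotypes over probe sets. The alternatives were other pseudocounts, filters, scalings and variance priors, each array left out, a block for the clone number, and averaging the probe sets of a gene. Centring on ES cell markers was chosen after seeing the data.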

Additional observations from a re-analysis of the deposited data

How the results depend on the processing

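The number of called probe sets among the 10 factors was small and moved with the processing, and each call in each setting was lower in KO. Instead of 1, a pseudocount of 1 gave 0, as did no filter on dim probe sets (7 at an unadjusted p under 0.05 in both, limma). It was 3 with a filter at the 60th percentile, 4 with a pseudocount of 64, 4 with a variance trend, 6 with arrays centred on the median, and 0 to 1 with 1 array left out (at an unadjusted p under 0.05, 4 without KO clone 1 and 6 without KO clone 2). With the clone number as a block it was 2, Esrrb (1422986_at) being added; the labels do not say that a number pairs clones. The calls added elsewhere were those of Esrrb, Tfcp2l1 and Nr5a2. The count over all probe sets, 996 as reported, was 189 with a pseudocount of 1, 190 with no filter, 2060 with a pseudocount of 64, 332 in the values as deposited, 2058 after median centring, 1955 with a variance trend and 203 to 653 with 1 array left out. The block gave 1390. The median over the factors, -0.28, was -0.58 in the values as deposited and -0.54 after median centring, where the median of all genes also shifted, to -0.23 and -0.19; it ran from -0.37 to -0.22 with 1 array left out. Nr0b1 failed with a pseudocount of 1 (limma, adjusted p = 0.098), with no filter (0.089) and without either KO clone. Its lowest adjusted p (limma, 7.8e-09) came after median centring, where every tested probe set of the factors had the same standard error (0.27). The same held in the values as deposited (0.38). In those fits a common variance stood in for that of each gene, so their p-values and counts are not like those of the other settings.

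Signs turned for 5 values that were not called. With 1 array left out, Sall4 (1424152_at) ran from -0.38 to 0.029, Tbx3 on 1437479_x_at from -0.66 to 0.046 and on 1445757_at from -0.31 to 0.84. After centring on ES cell markers, Zfp42 had 0.10 and Tbx3 (1439567_at) 0.0098. In a fit without 1 array, the lone array of its group is taken to vary as much as the other 2. The cause of these changes was not tested.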
